A study of Mus musculus with 6 samples.

Results

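Etv1, Etv4, Etv5, Dusp1, Dusp4, Dusp5, Dusp6, Spry2, Spry4 and Spred1 are transcribed downstream of the kinase ERK, and their levels serve as a readout of ERK output. These 10 genes were taken by symbol from a table of 23349 genes, in which each symbol had 1 row. They were chosen by their known place downstream of ERK with the TPM values and group differences of these same libraries already known, so their differences between the groups are described here without a test. The table comes from AtT-20 iPAM cells, which are mouse pituitary tumour cells of the corticotrope kind in which PAM, the enzyme that amidates the ends of secreted peptides, can be raised with doxycycline. There were 3 induced libraries, from cells given 4 micrograms per ml doxycycline for 48 h before extraction, and 3 basal libraries from iPAM cells without that addition. All cells grew in DMEM-F12 with serum, antibiotics, G418 and hygromycin and were taken from dense wells. The study asked how transcript levels in corticotropes differ between the basal and the induced level of PAM. Doxycycline was given to every induced library and to no basal one, so the drug and the raised enzyme cannot be told apart. The labels do not say whether the line is 1 clone, or whether each library had its own culture. The p-values below therefore reflect only how far these libraries spread, and that spread may be technical.

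ERK is the last kinase of a relay that runs from growth factor receptors through Ras, Raf and MEK, and it switches on transcription factors of the ETS family. Among the genes that respond are those of the ETS factors Etv1, Etv4 and Etv5 and of the relay's own inhibitors. The dual-specificity phosphatases (DUSPs) remove phosphate from ERK and its relatives, and the Sprouty and Spred proteins act upstream, at the level of the receptors, Ras and Raf. In corticotropes, signals from corticotropin-releasing hormone and from the cytokine Lif are known to reach the gene for pro-opiomelanocortin in part through kinases of this kind.

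The levels are TPM, each transcript's share of a library scaled to a total of 1000000. The libraries were made from amplicons, so levels are compared within a gene, and sums over genes only describe the listed values. TPM hold no information on depth, and the 16.6 M reads per library is a figure stated in the labels. Between 14491 and 15050 genes were above 0 in the induced libraries and between 14828 and 15098 in the basal ones. The libraries are called induced 1 to 3 and basal 1 to 3 as the table's column headers number them. Pam stood at 507, 399 and 258 TPM in induced libraries and at 92.6, 82.8 and 66.9 TPM in basal libraries, which places every induced library above every basal one. The mean was 388 ± 125 TPM in induced cells and 80.8 ± 13.0 TPM in basal cells (SD, n = 3 each), a 4.80-fold difference (log2 difference 2.21, SE 0.26, limma adjusted p = 0.0210). Leaving out any 1 library other than induced 3 ended that call, with limma adjusted p from 0.0822 to 0.175. Of 7 corticotrope markers, Pomc, Tbx19, Crhr1, Pitx1, Neurod1 and Pcsk1 were above 0 in every library. Avpr1b was at 0, 0.0845 and 0.0342 TPM in induced libraries and at 0 in every basal one. The list summed to 21560 to 30494 TPM in induced libraries and 23121 to 32110 TPM in basal libraries. Most of that is Pomc, at 20446 to 29239 TPM in induced libraries and 21916 to 31055 TPM in basal libraries. None of the 6 tested markers passed the threshold in limma, and 0 of them had an unadjusted p under 0.05; with the replicate block described below, Pcsk1 was higher (limma adjusted p = 0.0384). In RNA from a whole culture, fewer cells of a type and less RNA per cell cannot be told apart.

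The promoters of Dusp1 and Dusp5 are shown because, among the 9 member promoters searched, they held every match to the cAMP response element and to the serum response (CArG) element. They are RefSeq windows of the build GRCm38.p6, 250 bases before to 50 after a start site, printed on the gene's strand. Such windows were found for 7 of the 10 members. Dusp1 is at chr17:26508423-26508722 on the minus strand and Dusp5 at chr19:53528895-53529194 on the plus strand. Capitals mark the matches to these elements, searched on both strands.
Dusp1: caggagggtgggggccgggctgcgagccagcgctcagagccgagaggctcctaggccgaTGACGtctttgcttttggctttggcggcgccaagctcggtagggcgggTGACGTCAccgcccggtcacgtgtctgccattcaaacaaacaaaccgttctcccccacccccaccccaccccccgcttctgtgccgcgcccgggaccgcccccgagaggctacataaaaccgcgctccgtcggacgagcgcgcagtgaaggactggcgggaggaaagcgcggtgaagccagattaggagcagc
Dusp5: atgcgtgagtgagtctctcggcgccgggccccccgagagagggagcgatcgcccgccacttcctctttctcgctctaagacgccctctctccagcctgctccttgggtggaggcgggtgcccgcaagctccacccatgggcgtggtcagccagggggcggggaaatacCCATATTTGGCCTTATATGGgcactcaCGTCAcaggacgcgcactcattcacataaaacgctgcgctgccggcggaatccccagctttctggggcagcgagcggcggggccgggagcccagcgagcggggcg
In Dusp1 the full cAMP response element, TGACGTCA, lies at bases -143 to -136 from the start site, and 1.79% of the 32851 windows of this length in the RefSeq table hold it. Its core, TGACG, matched there on both strands and again at -191 to -187, and 20.8% of all windows hold that core. Dusp1 also holds the E-box CACGTG at -126 to -121, left in lower case, which 7.15% of windows hold. In Dusp5 a pair of adjoining CArG boxes runs from -82 to -73 and from -72 to -63, an element present in 1.63% of windows, and a CRE core lies at -55 to -51. The letters TGANTCA of an AP-1 site, found in 7.81% of windows, and CCGGAAG of an ETS site, found in 8.86%, were in none of the 9 windows searched. These are matches of letters, not measured binding.

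Among the ETS factors, Etv4 and Etv5 were several-fold lower in induced cells, and Etv1 was slightly higher. Etv5, a transcription factor that carries ERK signals to growth and differentiation genes, stood at 14.8, 14.7 and 10.3 TPM in induced libraries, against 42.6, 44.1 and 33.5 TPM in basal libraries. The groups lie far apart, and the libraries numbered 3 are the lowest of both. Etv5 averaged 13.3 ± 2.58 TPM in induced cells and 40.0 ± 5.74 TPM in basal cells (SD, n = 3 each), 3.01-fold lower, with a log2 difference of -1.53 (SE 0.20). Etv4, its close relative, stood at 1.36, 0.514 and 2.03 TPM in induced libraries and at 5.59, 5.97 and 5.93 TPM in basal libraries. The basal libraries are nearly equal, while the induced ones spread widely and still do not reach them. The means were 1.30 ± 0.761 TPM in induced cells and 5.83 ± 0.209 TPM in basal cells (SD, n = 3 each), 4.48-fold lower. At so low a level the pseudocount sets the log2 difference, which was -1.63 (SE 0.26) with 1 TPM added and -2.26 with 0.1 TPM added. Etv1, the remaining factor of this subfamily, stood at 30.0, 26.2 and 15.7 TPM in induced libraries and at 20.5, 18.4 and 14.0 TPM in basal libraries. Its groups overlap, because induced 3 falls among the basal values. The log2 difference of Etv1 was 0.39 (SE 0.27), from 24.0 ± 7.38 TPM in induced cells and 17.6 ± 3.34 TPM in basal cells (SD, n = 3 each).

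The phosphatases Dusp1, Dusp4 and Dusp5 were all lower in induced cells, Dusp1 the most. Dusp1, an immediate-early nuclear phosphatase that acts on ERK and, in most cells, strongly on JNK and p38, stood at 35.5, 40.1 and 23.5 TPM in induced libraries and at 93.6, 94.8 and 67.2 TPM in basal libraries. Every induced library lies below every basal one, with the libraries numbered 3 again lowest. Dusp1 averaged 33.0 ± 8.56 TPM in induced cells and 85.2 ± 15.6 TPM in basal cells (SD, n = 3 each), 2.58-fold lower, with a log2 difference of -1.36 (SE 0.24). Dusp4, a nuclear phosphatase of ERK, JNK and p38, stood at 34.4, 26.8 and 31.8 TPM in induced libraries and at 51.8, 51.1 and 49.0 TPM in basal libraries. Here the groups are also separate, and the libraries numbered 3 are not low for both groups. The means of Dusp4 were 31.0 ± 3.90 TPM in induced cells and 50.6 ± 1.49 TPM in basal cells (SD, n = 3 each), 1.63-fold lower, with a log2 difference of -0.70 (SE 0.14). Dusp5, a nuclear phosphatase specific for ERK, stood at 17.8, 16.1 and 16.2 TPM in induced libraries and at 25.3, 24.1 and 21.4 TPM in basal libraries. Its groups are closer but do not overlap. The difference of Dusp5 was 1.41-fold (16.7 ± 0.928 TPM in induced cells and 23.6 ± 1.98 TPM in basal cells, SD, n = 3 each; log2 difference -0.47, SE 0.14). Dusp6, the cytoplasmic phosphatase of ERK often used as the standard readout of ERK output, was listed at 0 in all induced libraries and in basal 2 and 3, and at 0.0991 TPM in basal 1. It gives no readout in these libraries.

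**Figure D1:**
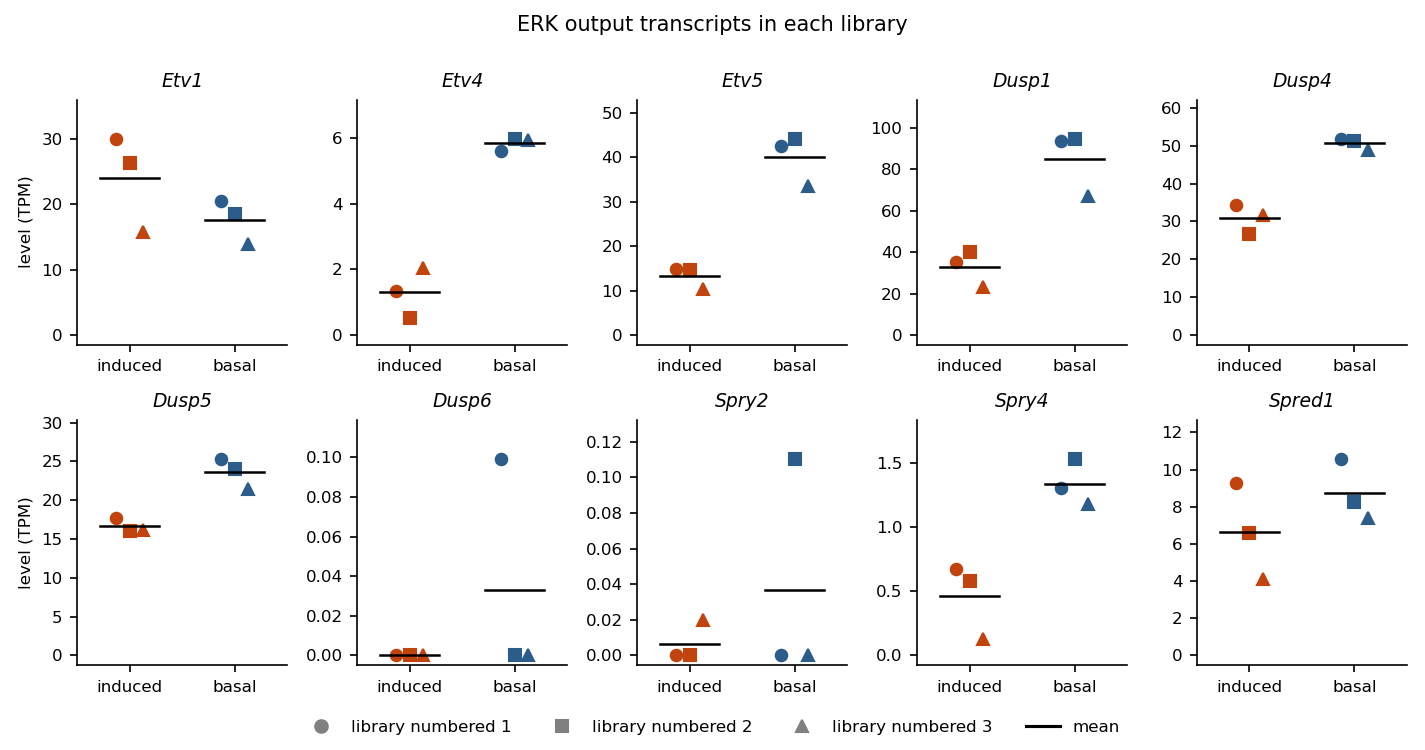
Level in TPM of each of the 10 transcripts in the 3 induced and 3 basal libraries, 1 panel per gene with its own axis from 0; markers give the library number and the black lines the group means. Etv4, Etv5, Dusp1, Dusp4, Dusp5 and Spry4 are lower in every induced library than in any basal one, Etv1 and Spred1 overlap, and Dusp6 and Spry2 sit at or near 0.

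The Sprouty and Spred members had low TPM values or were close between the groups. Spry4, which blocks signals from receptor tyrosine kinases to Ras, stood at 0.676, 0.580 and 0.131 TPM in induced libraries and at 1.31, 1.53 and 1.18 TPM in basal libraries. The groups are separate, but the mean over all libraries is under the 1 TPM needed to enter the fit, so no fitted difference is given. Spry4 averaged 0.462 ± 0.291 TPM in induced cells and 1.34 ± 0.177 TPM in basal cells (SD, n = 3 each). Spry2, the best studied Sprouty, was listed at 0, 0 and 0.0202 TPM in induced libraries and at 0, 0.110 and 0 TPM in basal libraries, so no fold is given. Spred1, which recruits the Ras inactivator neurofibromin to the membrane, stood at 9.28, 6.59 and 4.12 TPM in induced libraries and at 10.6, 8.25 and 7.41 TPM in basal libraries. Its groups overlap, with induced 1 above basal 2 and 3. The log2 difference of Spred1 was -0.39 (SE 0.28), from 6.66 ± 2.58 TPM in induced cells and 8.74 ± 1.63 TPM in basal cells (SD, n = 3 each).

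In all, 7 of the 10 members reached the filter of 1 TPM, and Dusp6, Spry2 and Spry4 did not. What follows describes the fit over all genes and is not a test of these genes. Etv4 and Etv5 were past the adjusted threshold of 0.05 and lower, where 1.06% of the 12400 genes tested were. Past it and higher were 0 members, where 0.129% of genes were. At an unadjusted p under 0.05 in limma, 5 members were lower and 0 higher, where 1185 and 686 of all genes tested were. In 6 of the 10 the groups did not overlap with induced cells lower, against 11.2% of the 16798 genes above 0 in some library. The genes were chosen with this contrast known, so nothing is read from these counts. Of the 7 tested members 6 were negative, and the median of the 7 was -0.70, against -0.04 over all genes tested, of which 55.1% were negative. The summed level of the 10 genes was 104 to 144 TPM in induced libraries and 200 to 251 TPM in basal libraries.

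Across genes, deviations from the group mean correlated at 0.72 between the libraries numbered 3, 0.46 between those numbered 1 and 0.18 between those numbered 2. Induced 2 with basal 1 gave 0.32 and induced 1 with basal 2 gave 0.28. Both exceed the value for the libraries numbered 2, so a pairing by number is not shown for these. With the column number as a replicate block, again as a description, 5 members were lower and 1, Etv1, was higher past the threshold, where 14.0% of all genes were lower and 8.23% higher. Within numbers 1, 2 and 3 the ratio of induced to basal TPM was 0.349, 0.334 and 0.308 for Etv5 and 0.380, 0.423 and 0.349 for Dusp1. For these genes the ratio varies far less than the level does. The ratios were 0.664, 0.523 and 0.650 for Dusp4, and 0.702, 0.669 and 0.757 for Dusp5. Spred1, whose groups overlap, was below 1 in every pair at 0.878, 0.799 and 0.556, and Etv1 was above 1 in every pair at 1.46, 1.42 and 1.13. The ratios of the low genes spread most, at 0.242, 0.0862 and 0.343 for Etv4 and at 0.518, 0.379 and 0.111 for Spry4. Library induced 3 lay below its group mean for 5 of the 7 tested members and basal 3 for 6 of 7, with median deviations of -0.32 and -0.20 on the log2 scale. Without both of these libraries 4 members were past the threshold and lower, where 501 of the 12400 genes were. Leaving out induced 3 gave 3, where 222 of the 12400 genes were lower. Leaving out any 1 of the other 5 libraries gave 0 members in limma, where 0 to 13 genes were lower. In those 5 runs 5 or 6 members were lower at an unadjusted p under 0.05, where 1130 to 1562 genes were under it in either direction.

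**Figure D2:**
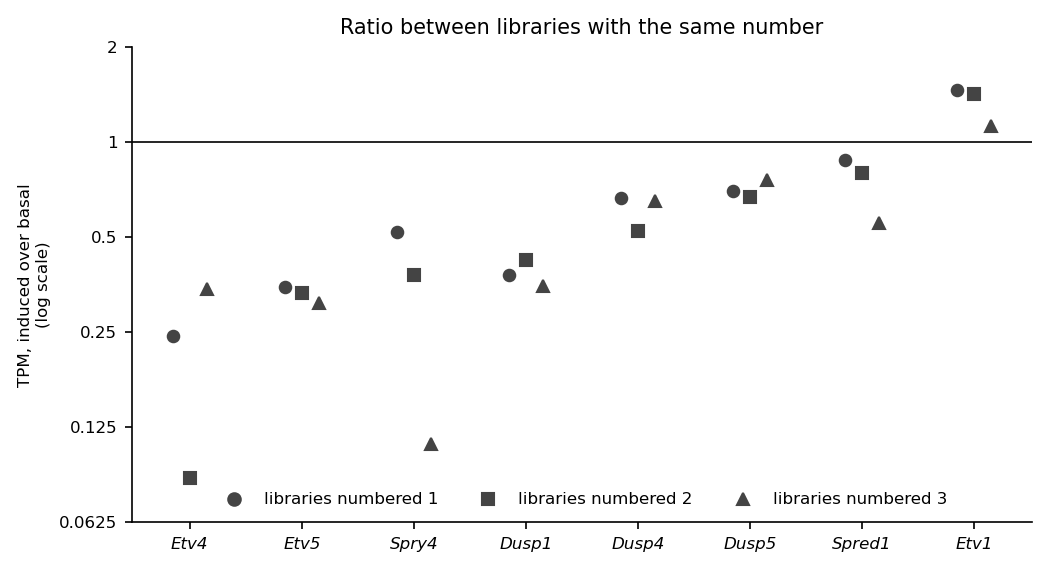
Ratio of TPM in the induced library to TPM in the basal library of the same column number, on a log axis, for the 8 members measured above 0 in every library; markers give the number and the line marks equal levels. Etv5 keeps between 0.308 and 0.349 and Dusp1 between 0.349 and 0.423, Etv4 and Spry4 spread most, and Etv1 alone lies above 1, between 1.13 and 1.46.

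The tested members differed in how closely they tracked each other across the 6 libraries. Pearson's r of log2(TPM + 1) with the members' mean profile, which includes the gene itself, was 0.96 for Etv5, 0.96 for Dusp1, 0.97 for Dusp5, 0.90 for Dusp4, 0.83 for Spred1, 0.79 for Etv4 and -0.10 for Etv1. The points share the same 6 libraries in 2 groups, so these values contain the group difference. Between pairs of genes, r was lowest where Etv1 or Spred1 was 1 of the pair, at 0.37 for Etv4 and Spred1 and 0.41 for Etv1 and Spred1, and 0.57 for Dusp4 and Spred1, with negative values for Etv1 beside each of the remaining 5. With each group's mean removed, Etv5 and Dusp1 had r = 0.98, and Etv5 and Etv1 had r = 0.96 although their differences between the groups have opposite signs. Etv4 and Etv5, both lower in induced cells, had r = -0.62 within groups and 0.86 across all libraries. Of all genes that passed the filter, the 3 most like Dusp1 were Map3k8, a kinase that activates MEK, Cdkn1c, a cyclin-dependent kinase inhibitor, and Neu3, a sialidase, with r of at least 0.998. Those most like Etv5 were Rnd1, a small GTPase, Tnfrsf9, an immune costimulatory receptor, and Adm, the adrenomedullin precursor, with r of at least 0.997. The nearest to Dusp4 were Serinc2, Smad3 and Anxa11, and the nearest to Dusp5 were Cntnap1, Gramd4 and Enc1. Those nearest to Etv4 were Cyp4f17, Slc5a11 and Ulk1. Etv1 was most like Fbxl17, Mdga2 and Timm8a1, and Spred1 most like Calu, Phtf1 and Necap1. The members' mean profile was matched most closely by Msn, 0610030E20Rik, Hjurp, D330045A20Rik and Hk2.

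The study's own tables list some of the members. The authors' deposited table from Cuffdiff gives Etv5 a log2 fold change of -1.56, from 6.86 FPKM in induced cells and 20.2 FPKM in basal cells (q = 0.000414). In the authors' deposited table from Cuffdiff, Etv4 had -2.19 and Dusp1 -1.33 at the same q, Dusp4 had -0.69 (q = 0.00140) and Etv1 had +0.47 (q = 0.0313). That makes 4 members lower and 1 higher, where the table's genes tested here come to 7.98% lower and 4.51% higher. The authors' deposited table from DESeq2, on which 0.379% of the genes tested here are lower, gives Etv5 -1.22 (adjusted p = 0.0208) and Dusp1 -0.95 (adjusted p = 0.00939). The authors' deposited table from limma, with 1.05% of genes lower, gives Etv5 -1.53 (adjusted p = 0.0221) and Dusp1 -1.35 (adjusted p = 0.0530). The DESeq2 table holds 195 genes, 47 lower and 148 higher, and over these its log2 values run a median of 0.42 above those of the mean TPM. These genes were selected by that table's cutoff, and whether the offset holds for other genes was not tested. Moving the induced libraries by that offset takes the median of all genes to 0.36 and the members' median to -0.29. On that scale Dusp5 was at -0.07 and Spred1 at -0.02, Dusp4 at -0.29, Dusp1 at -0.95, Etv5 at -1.13 and Etv1 at 0.80, so none of the 7 changed sign.

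The rest of the pathway and some other pathways were followed through 12 lists, ordered by role. The lists include JNK and p38 kinases with their activators, and transcripts known to follow cAMP and CREB or glucocorticoids. The totals over the lists therefore cover more than the ERK pathway. The lists' 233 genes in the table, without the members, gave 155 tested genes, of which 9 fell and 0 rose past the threshold in limma. Over all 12400 genes tested, 1.06% were lower and 0.129% higher past it. At an unadjusted p under 0.05, 42 of the 155 were lower and 2 higher, where 1185 and 686 of all genes were. With the replicate block 59 fell and 6 rose, where 14.0% of all genes were lower and 8.23% higher. The counts of each list below stand beside these same shares. The median log2 difference of the 155 was -0.24, and 74.8% were negative, against -0.04 and 55.1% over all genes tested. Some of these genes appear in earlier results of the same libraries, so the lists are not independent of them. Hras, Spi1 and Spry3 are not analysed here.

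On the ligand list 5 tested genes had negative and 5 had positive log2 differences. Among the positive ones, Fgf11, Fgf12 and Fgf14, at 0.13, 0.29 and 0.24, encode factors that act inside cells and are not receptor ligands. The other positive ones were Fgf21 and Pdgfa, at 0.19 and 0.18. Of the list's 39 genes, 16 were listed at 0 in every library and 10 were tested. None passed the threshold in limma, and 4 were lower and 0 higher at an unadjusted p under 0.05. Artn, artemin, a ligand of the Ret receptor complex, averaged 3.25 ± 0.515 TPM in induced cells and 7.34 ± 1.40 TPM in basal cells (SD, n = 3 each; log2 difference -0.97, limma adjusted p = 0.0689, and 0.00170 with the replicate block). Hbegf, a ligand of the EGF receptor family, averaged 15.7 ± 2.71 TPM in induced cells and 26.7 ± 4.52 TPM in basal cells (SD, n = 3 each; limma adjusted p = 0.139, and 0.00152 with the replicate block). Both are lower in every induced library than in any basal one.

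Among the receptor tyrosine kinases, 1 of 7 tested fell and 0 rose. Fgfr3, a receptor of fibroblast growth factors, stood at 1.36, 1.15 and 1.02 TPM in induced libraries and at 3.68, 4.12 and 3.30 TPM in basal libraries (log2 difference -1.11, SE 0.16, limma adjusted p = 0.0369). The induced libraries hold under 2 TPM and the basal ones over 3 TPM. The related receptors Fgfr2 and Fgfr1, and Ddr2, a collagen receptor, were chosen after their values were seen. Fgfr2 averaged 19.7 ± 6.72 TPM in induced cells and 40.8 ± 8.89 TPM in basal cells (SD, n = 3 each; limma adjusted p = 0.148, and 4.6e-04 with the replicate block). Fgfr1 had a log2 difference of -0.41 (limma adjusted p = 0.401, and 0.0119 with the replicate block). With the block 4 receptors fell and 2 rose, among them Ddr2, at a log2 difference of 0.54 (limma adjusted p = 0.00615 there and 0.326 without it).

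The relay itself held few genes past the threshold. Of 14 adaptors and Ras activators tested, 0 fell and 0 rose in limma, with 0 lower and 1 higher at an unadjusted p under 0.05. With the replicate block Rapgef4 rose (log2 difference 0.48, limma adjusted p = 0.00737, and 0.251 without it), as did Rapgef1 (0.40, limma adjusted p = 0.0183, and 0.337 without it). Both proteins switch on Rap, a relative of Ras, and Rapgef4 is opened by cAMP. Of 26 genes of the Ras, Raf, MEK and ERK core, 1 fell and 0 rose, and with the replicate block 5 fell and 1 rose. Rras, a GTPase related to Ras, averaged 26.9 ± 3.79 TPM in induced cells and 52.5 ± 3.99 TPM in basal cells (SD, n = 3 each; log2 difference -0.94, SE 0.15, limma adjusted p = 0.0447). Mapk3, which encodes an ERK, was close between the groups and averaged 249 ± 7.54 TPM in induced cells and 245 ± 2.04 TPM in basal cells (SD, n = 3 each; log2 difference 0.02, SE 0.11, limma adjusted p = 0.961). For the MEK genes, Map2k1 had a log2 difference of -0.20 (limma adjusted p = 0.751) and Map2k2 one of 0.30 (limma adjusted p = 0.610, and 0.0462 with the replicate block). Transcript levels say nothing of the phosphorylation that makes these kinases active.

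The other DUSP genes and the other Sprouty and Spred genes had negative medians, -0.46 and -0.63, and stayed negative on the scale of the DESeq2 table, at -0.07 and -0.25. None of the 5 other tested DUSP genes passed the threshold in limma, with 2 lower and 0 higher at an unadjusted p under 0.05, and with the replicate block 3 fell. Dusp8 and Dusp10, which act on JNK and p38, had log2 differences of -0.65 (limma adjusted p = 0.289, and 0.00833 with the block) and -0.48 (limma adjusted p = 0.283, and 0.00915 with the block). Dusp7, like Dusp6 a cytoplasmic phosphatase of ERK, averaged 21.6 ± 3.79 TPM in induced cells and 22.5 ± 1.21 TPM in basal cells (SD, n = 3 each; log2 difference -0.08, SE 0.17, limma adjusted p = 0.917), and its sign turned on the scale of the DESeq2 table. Dusp9 and Spry1 were listed at 0 in every library. Of the other Sprouty and Spred genes, Spred3 averaged 5.89 ± 0.614 TPM in induced cells and 10.8 ± 0.609 TPM in basal cells (SD, n = 3 each; log2 difference -0.78, limma adjusted p = 0.0657, and 0.00264 with the block); its groups do not overlap. Spred2 had a log2 difference of -0.49 (limma adjusted p = 0.467, and 0.0246 with the block). Among 14 other feedback inhibitors 0 passed the threshold in limma and 6 fell with the block, with 3 lower and 0 higher at an unadjusted p under 0.05. Errfi1, an inhibitor of the EGF receptor family, stood at 44.3, 46.2 and 34.0 TPM in induced libraries and at 107, 87.5 and 71.1 TPM in basal libraries. Every induced library of Errfi1 is lower than every basal one (log2 difference -1.07, SE 0.20, limma adjusted p = 0.0631, and 2.9e-04 with the block). Il17rd, a feedback inhibitor of fibroblast growth factor signals, was too low to be tested, at 0.600 ± 0.0709 TPM in induced cells and 0.898 ± 0.143 TPM in basal cells (SD, n = 3 each).

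**Figure D3:**
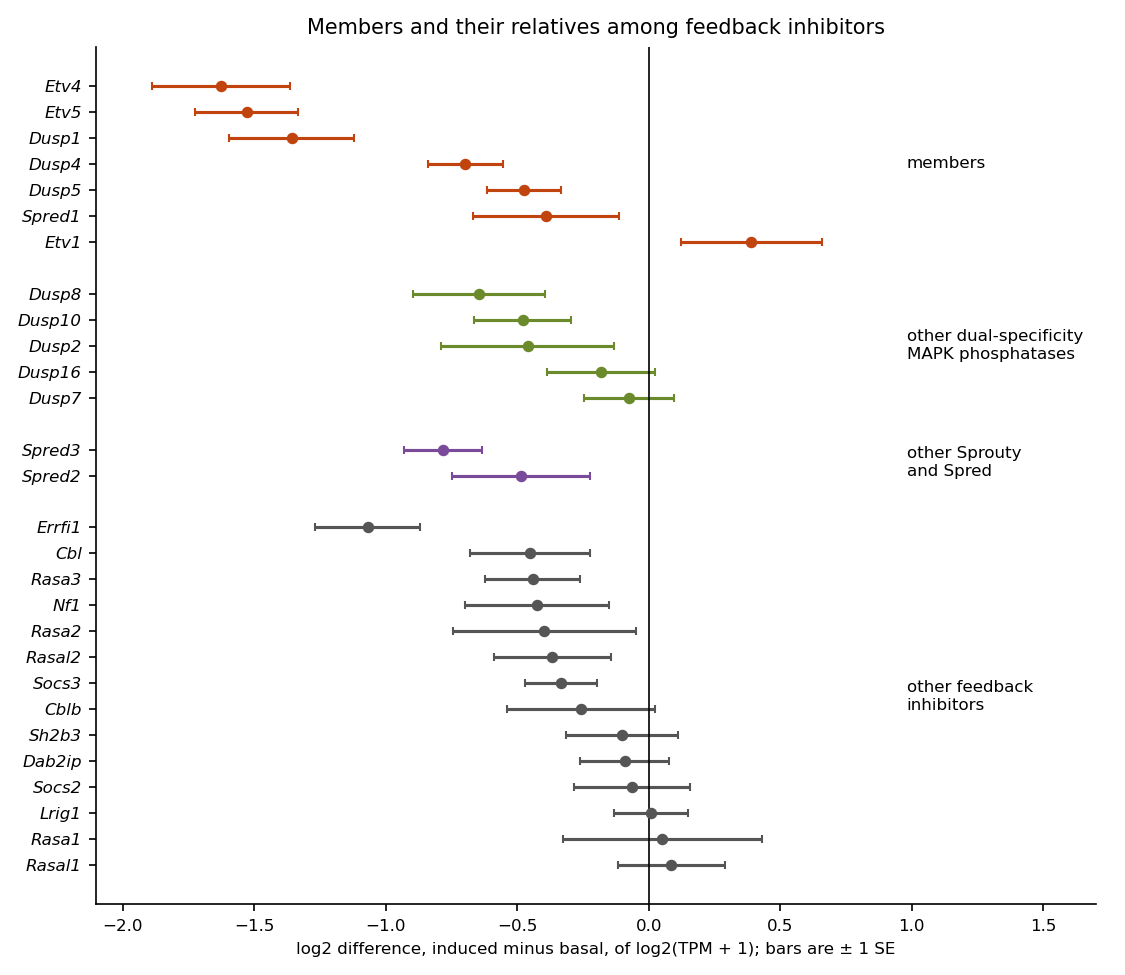
Log2 difference, induced minus basal, of log2(TPM + 1) with bars of ± 1 SE for the tested members, the other dual-specificity MAPK phosphatases, the other Sprouty and Spred genes and the other feedback inhibitors. Etv4, Etv5 and Dusp1 lie lowest at -1.63, -1.53 and -1.36, Etv1 lies highest at 0.39, and Errfi1 is the lowest of the feedback inhibitors that are not members.

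Of 16 other ETS factors tested, 1 fell and 0 rose, and with the block 4 fell and 1 rose. Elf3, an ETS factor of epithelial cells, stood at 143, 141 and 178 TPM in induced libraries and at 282, 276 and 305 TPM in basal libraries (log2 difference -0.91, SE 0.14, limma adjusted p = 0.0411). Its groups are well apart, and for Elf3 the libraries numbered 3 are the highest of each group. The factor that rose with the block was Fev, known from serotonin neurons and chosen after its values were seen, at a log2 difference of 0.41 (limma adjusted p = 0.0177, and 0.650 without the block). The medians of the other ETS factors and of the other feedback inhibitors were -0.24 and -0.30, but turned positive on the scale of the DESeq2 table, at 0.14 and 0.11.

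Of 24 tested transcripts otherwise known to follow ERK, 5 fell, where 1.06% of all genes were lower, and 0 rose; 23 were negative, and their median was -0.77. With the replicate block 18 fell, where 14.0% of all genes were lower, and 0 rose. Fos and Nr4a1 are also on the list of transcripts that follow cAMP, and on the scale of the DESeq2 table the median was -0.39 with 19 negative. Fos, an immediate-early factor of AP-1, stood at 14.7, 16.4 and 16.6 TPM in induced libraries and at 51.1, 59.6 and 51.6 TPM in basal libraries. Maff, a small transcription factor of the Maf family, stood at 32.7, 31.8 and 35.1 TPM in induced libraries and at 95.5, 94.6 and 99.1 TPM in basal libraries. Replicates of both genes are close to each other, and the groups do not overlap. The log2 difference was -1.71 for Fos (SE 0.14, limma adjusted p = 0.00840) and -1.51 for Maff (SE 0.12, limma adjusted p = 0.00840). Myc, a growth regulator, stood at 2.34, 4.15 and 2.52 TPM in induced libraries and at 14.6, 17.5 and 13.8 TPM in basal libraries. The highest induced library is far below the lowest basal one. Its log2 difference was -2.04 (SE 0.21, limma adjusted p = 0.0173). Plk2 and Lif, the other genes of this list past the threshold, and Ier3 were chosen after their values were seen. Plk2, a stress-induced kinase, averaged 42.2 ± 10.3 TPM in induced cells and 165 ± 19.2 TPM in basal cells (SD, n = 3 each; log2 difference -1.96, limma adjusted p = 0.0181). Lif, the cytokine that stimulates corticotropes, averaged 3.60 ± 0.407 TPM in induced cells and 9.49 ± 0.861 TPM in basal cells (SD, n = 3 each; log2 difference -1.19, limma adjusted p = 0.0255). Ier3, an immediate-early survival gene, had a log2 difference of -1.91 (limma adjusted p = 0.0682, and 2.7e-05 with the block). Egr1, an early-response factor, averaged 1.28 ± 0.375 TPM in induced cells and 2.54 ± 0.395 TPM in basal cells (SD, n = 3 each; limma adjusted p = 0.182, and 0.0383 with the block). Phlda1 had a log2 difference of -0.65 (limma adjusted p = 0.212). Ccnd1, the gene of cyclin D1, was too low to be tested, at 1.06 ± 0.164 TPM in induced cells and 0.928 ± 0.0879 TPM in basal cells (SD, n = 3 each).

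**Figure D4:**
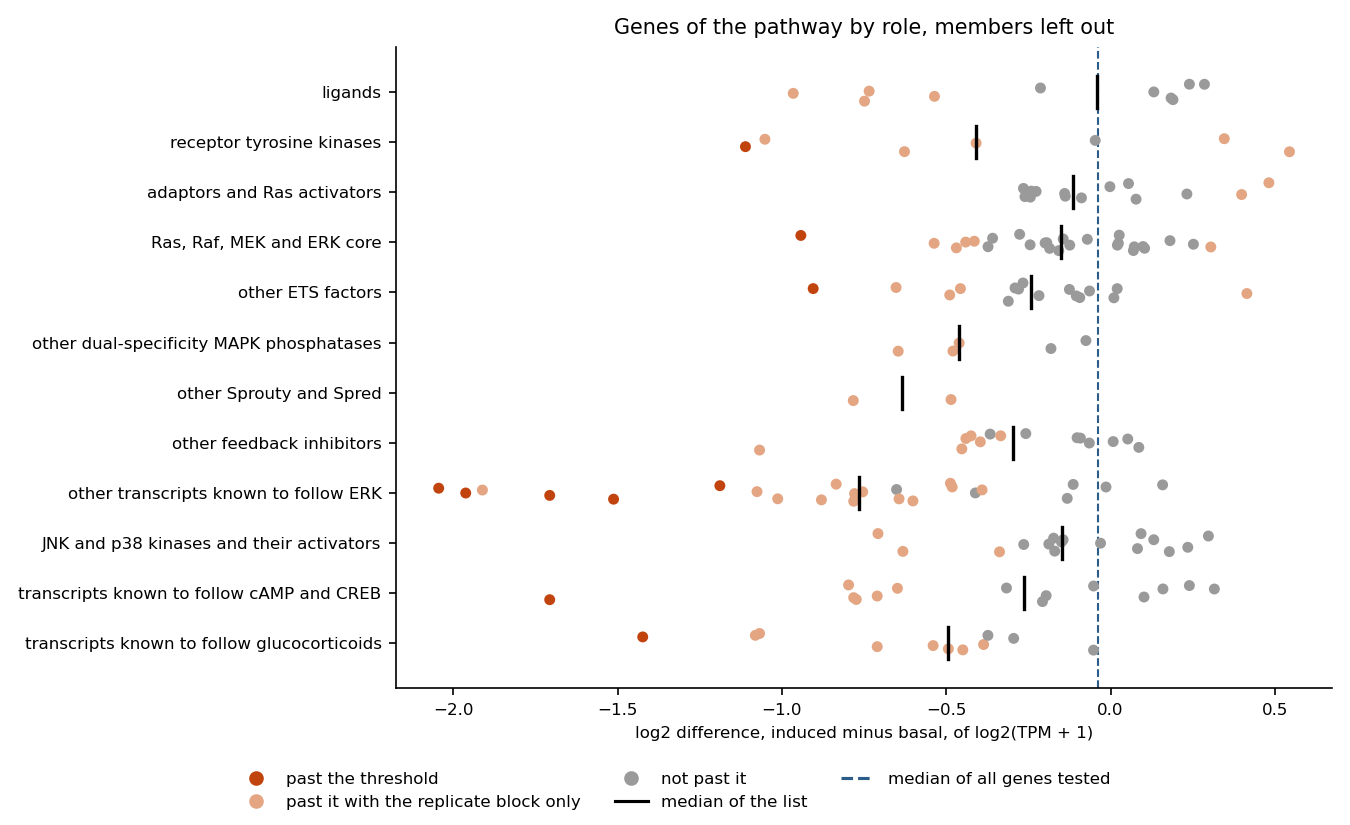
Log2 difference, induced minus basal, of log2(TPM + 1) for each tested gene of the 12 lists, members left out, with colours for genes past the threshold in limma, past it with the replicate block only, or past neither; black bars mark list medians and the dashed line the median of all genes. The other transcripts known to follow ERK lie furthest left of the lists, with a median of -0.77. The lists of ligands, of adaptors and of the Ras, Raf, MEK and ERK core have medians of -0.04, -0.11 and -0.15. These turn to 0.26, 0.30 and 0.26 on the scale of the DESeq2 table. The ligand list holds Fgf11, Fgf12 and Fgf14, which are not receptor ligands.

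Transcripts tied to other pathways, which can act on some of the same genes, were also followed. The activity of these pathways was not measured. Of 14 transcripts known to follow cAMP and CREB, 1 fell, Fos, which is also on the ERK list, and 0 rose, with 6 lower and 0 higher at an unadjusted p under 0.05. With the block 6 fell and 0 rose, and the median was -0.26, or 0.04 on the scale of the DESeq2 table. Of 11 transcripts known to follow glucocorticoids, 1 fell and 0 rose, with 5 lower and 0 higher at an unadjusted p under 0.05. With the block 8 fell and 0 rose, and the median was -0.49 with all 11 negative, or -0.12 with 8 negative on that scale. Ddit4, an inhibitor of the growth kinase mTOR, averaged 701 ± 79.8 TPM in induced cells and 1877 ± 154 TPM in basal cells (SD, n = 3 each; log2 difference -1.42, SE 0.13, limma adjusted p = 0.0135). Errfi1 and Cdkn1c, named above for their place beside the members, are also on the glucocorticoid list. Among 16 JNK and p38 kinases and their activators, 0 fell and 0 rose in limma, with 1 lower and 0 higher at an unadjusted p under 0.05. The 1 lower was Map3k8, named above as a kinase that activates MEK, so it also belongs to the ERK relay. Map3k8 averaged 1.78 ± 0.394 TPM in induced cells and 3.53 ± 0.503 TPM in basal cells (SD, n = 3 each; log2 difference -0.71, limma adjusted p = 0.135, and 0.0140 with the block), and Map2k5, the MEK of the related kinase ERK5, had 0.30 (limma adjusted p = 0.421, and 0.0303 on the scale of the DESeq2 table, where its value was 0.70). With the block 3 genes of this list fell and 0 rose. Which of these pathways bears on the members was not tested.

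The calls rest on most of the libraries. Each of the 9 genes that fell (Fos, Maff, Myc, Plk2, Lif, Elf3, Fgfr3, Rras and Ddit4) lost its call when induced 1, induced 2, basal 1 or basal 2 was left out, with 30 to 45 genes of the lists lower at an unadjusted p under 0.05. Without basal 3, Maff and Fos kept theirs, and without induced 3, 14 genes were past the threshold. Some markers of other cell types were also lower in induced libraries. In the blood list, Cd68, a lysosomal protein of macrophages, was 0.895 to 2.38 TPM in induced libraries and 7.39 to 8.39 TPM in basal libraries, without overlap, while Ptprc, Cd3e, Csf1r and Hbb-b1 were at or near 0. The fibroblast list summed to 1.33 to 1.76 TPM in induced libraries and 2.57 to 4.07 TPM in basal libraries, nearly all of it Col1a1. The endothelial list summed to 0.696 to 0.879 TPM in induced libraries and 1.27 to 1.76 TPM in basal libraries. The sums of the remaining lists overlapped, at 1.95 to 3.33 TPM in induced libraries and 3.17 to 4.93 TPM in basal libraries for other pituitary hormone cells, and at 5.76 to 12.6 TPM in induced libraries and 7.998 to 13.4 TPM in basal libraries for pituitary support and stem cells. The part of these markers in the results was not tested.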

How the data were processed

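Amplicon libraries were made with AmpliSeq Library PLUS, which amplifies selected parts of each transcript, and sequenced in 1 lane, per the labels' protocols. Levels are therefore compared within a gene and not between genes. Per the submitters' processing notes, the build was mm10, reads were handled with TopHat2 2.0.9 and Bowtie2 2.1.0.0, and the tools Cuffdiff 2.2.0, Cufflinks 2.2.0, limma and DESeq2 are also named. The sources used here give neither settings nor annotation. The deposited main sheet is named for FPKM, but its columns sum to 1000000 each, so the deposited values are TPM. Depth is therefore unknown, and no interval that needs it is given. The authors' deposited tables hold group FPKM, log2 fold changes, p-values or q-values and, in the limma table, a B score, per the file headers.

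Columns carry a group and a number and the labels a letter, so columns were matched to groups only. Of the genes listed, 6551 were at 0 throughout, and 12400 had a mean of 1 TPM or more and were tested. On log2(TPM + 1), limma 3.58.1 in R 4.3.3 compared the groups (eBayes with a trend, Benjamini-Hochberg over all genes tested, threshold 0.05). Log2 differences understate the change of low genes, and folds are ratios of mean TPM. The members, the gene lists and the rule for named genes were chosen with earlier results of these data known. The rule takes all members, up to 3 genes of each list past the threshold in each direction or else the 2 with the smallest p, a set of genes named whatever their values, and the genes closest to each member by Pearson correlation. Not every gene it takes is described, and some results are not reported here. Libraries with the same column number had correlations of their deviations from the group means of 0.46, 0.18 and 0.72 across genes. Between different numbers, induced 1 and 2 against basal 1 and 2 gave 0.28 and 0.32, and every correlation of a number 3 with a 1 or 2 was negative. All same-number values were above 0.1, so the number was used as a replicate block in an alternative fit. The pairing comes from this check, and the labels do not tie the numbers. The check does not show a pair for the libraries numbered 2, whose 0.18 is below 0.28 and 0.32. Other alternatives were a pseudocount of 0.1 or of 0.01, a filter at 5 TPM or none, quantile and median-ratio scaling, eBayes without trend or robust, and leaving out each library. A further one was the offset of the authors' deposited DESeq2 table. Leaving out both libraries numbered 3 was chosen after seeing the data.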

Additional observations from a re-analysis of the deposited data

How the results depend on the processing

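The members' median kept its sign in every alternative run, as did the sign of each tested member, Etv1 being positive and the others negative. The counts moved more. With the replicate block, that is, column numbers taken as pairs, 1740 genes were lower and 1021 higher, and 5 members were lower and 1 higher. Of the genes of the lists by role, 59 were lower and 6 higher with the block. Without the block the counts were 132 and 16 for all genes, 2 and 0 for the members, and 9 and 0 for the lists. Without both libraries numbered 3 the counts were 501 lower and 187 higher for all genes, 4 members lower and 24 genes of the lists lower. Leaving out 1 library gave 0 to 222 lower and 0 to 33 higher over all genes, and 0 to 3 members lower and 0 higher. In these runs 0 to 14 genes of the lists were lower and 0 higher. Over all genes, 1130 to 2226 were at an unadjusted p under 0.05 in limma. A pseudocount of 0.1 gave 10 genes higher, a filter at 5 TPM gave 85 lower and 8 higher, and quantile normalization gave 28 higher. The scale of the DESeq2 table gave 1859 higher with 11 genes of the lists among them. Members lower numbered 1 with a pseudocount of 0.1 or 0.01, with no filter and with a filter at 5 TPM, the last of which removes Etv4. Under quantile and median-ratio scaling 2 members were lower, but Dusp1 took the place of Etv4. On the DESeq2 scale the sign turned for Socs3 (0.078), Pomc (0.26), Map2k1 (0.22) and Dusp7 (0.33), and Rapgef4 (0.90), Rapgef1 (0.81), Map2k5 (0.70), Ddr2 (0.95), Tbx19 (0.48) and Mapk3 (0.44) were higher past the threshold there, as Ier3 (-1.50) was lower (limma adjusted p = 0.0261 to 0.0436). Mapk3 turned under quantile normalization (-0.0036) and without both libraries numbered 3 (-0.0056), and Dusp7 without both (0.035). Leaving out 1 library gave -0.0011 to 0.039 for Mapk3 and -0.15 to 0.073 for Dusp7. Rras lost its call with no filter, under quantile and median-ratio scaling and on the DESeq2 scale (limma adjusted p = 0.0534 to 0.0896), Elf3 under median-ratio scaling and on the DESeq2 scale (limma adjusted p = 0.0816 and 0.0552), and Lif under quantile normalization. The cause was not tested. TPM carry no depth, so what depth limits cannot be stated for Dusp6, Spry2 and Spry4, the members listed at or near 0. Whether the amplicons of these genes limit their values was not tested.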
